A study of Mus musculus with 4 samples.

Results

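The effect of STIM1 deficiency that the mouse left ventricle showed after either operation was read from both STIM1KO arrays set against both wild-type (WT) arrays. These are all 4 arrays of the series, 2 for each genotype. Total RNA was hybridised to single-channel arrays, 1 for each of 4 groups of male C57BL/6 mice. In both genotypes the operation was done at 10 weeks of age, and the ventricle was taken 4 weeks later, at 14 weeks. The sham groups had the aorta exposed but not tied. The TAC groups had transverse aortic constriction, a suture tied around the aorta and a wire of 0.3 mm that was then withdrawn, which loads the left ventricle with pressure. Average heart weight over body weight, for which the labels name no unit, was 4.1 for WT sham and 4.5 for STIM1KO sham, against 6.7 for WT TAC and 4.9 for STIM1KO TAC. The sources used here do not say how STIM1 was removed, in which cells, or how many mice gave RNA to an array.

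STIM1 sits in the membrane of the endoplasmic reticulum, where it senses how much calcium the store holds. When the store empties, STIM1 gathers beneath the plasma membrane and opens Orai channels, a route called store-operated calcium entry. In heart muscle this calcium is linked to calcineurin, the phosphatase that sends NFAT transcription factors to the nucleus, and the route is also used by endothelial and immune cells.

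For each gene the log2 intensity of the WT array was subtracted from that of the STIM1KO array within each operation. The sham difference and the TAC difference share no array. Their mean is the genotype difference, and the gap between them is the only spread that the design offers. A negative difference means a lower signal in STIM1KO. Of 14039 genes valued on all 4 arrays, 7020 passed a filter on dim signals (mean log2 intensity of at least 4.87) and were tested. The TAC difference was the wider of the pair, with an SD across genes of 0.42 against 0.29 for the sham difference, and STIM1KO TAC was the array farthest from the rest, with Pearson correlations of 0.963 to 0.974 with the other 3 over the genes tested, where these had 0.987 to 0.990 among themselves. Leaving that array out leaves the sham pair alone, so each result is given with its sham value beside its TAC value. Across genes, which are not independent replicates, the sham and TAC differences had a Pearson correlation of 0.321 and a Spearman correlation of 0.336. Of 10 cardiomyocyte markers, 8 passed the filter, and the oxygen carrier myoglobin (Mb) and the ventricular light chain Myl2 were among the brightest genes on each array. The release channel Ryr2 was dim, at 4.26, 5.57, 4.31 and 2.77.

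Stim1 itself was lower on both STIM1KO arrays. Its single probe gave intensities of 41.6 (sham) and 33.9 (TAC) on WT, and 20.7 (sham) and 13.8 (TAC) on STIM1KO. Both STIM1KO values lay below both WT values, and both held a value. The sham difference was -1.0, the TAC difference -1.30 and the mean -1.15, which is 2.22-fold lower with a gap of 0.29. Among the 500 genes nearest to it in level, 0 were as low in both operations. The probe lay below the filter on dim signals, so limma was run on it in the fit over all 14039 genes, where its p was 0.00138 and its adjusted p 0.476. Which part of the transcript the probe reads was not known, so it checks the labels only in part.

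At 1.5-fold in both operations, 60 genes were lower in STIM1KO, 0.855% of the 7020 tested, and 13 were higher, 0.185%. After sham alone 192 genes were at least 1.5-fold lower and after TAC alone 577. The 60 shared genes made up 31.3% of the former, beside 8.22% of all genes tested that were 1.5-fold lower after TAC. They made up 10.4% of the latter, beside 2.735% of all genes tested that were 1.5-fold lower after sham. The 13 shared higher genes were 15.1% of 86 after sham, beside 6.31% of all genes that were 1.5-fold higher after TAC. They were 2.94% of 443 after TAC, beside 1.225% of all genes that were 1.5-fold higher after sham. With dim genes included, 389 of 14039 genes (2.77%) reached 1.5-fold in both. All 60 lower genes had both STIM1KO arrays below both WT arrays, as did 19.1% of all genes tested, and 10 of the 13 higher genes had both above, as did 22.4%. The 1.5-fold rule uses differences between these same arrays, so this separation is no further evidence. Over all genes tested, both STIM1KO arrays were below both WT arrays in 1344 genes and above in 1569, and in 1848 and 1081 with values as deposited, without quantile normalization. Median differences of the 60 were -0.75 after sham and -0.86 after TAC. Just inside the threshold lay Apoc3 and H2az1, with -0.59 as the smaller of their differences, and just outside lay Ctsf and Ubxn2a with -0.58. On the higher side, Cracr2a (0.59) and Mfsd13b (0.60) were just inside, and Klrc2 (0.58) and Dym (0.57) just outside.

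The additive fit in limma, with the operation as a block, called 103 genes lower (1.47% of those tested) and 22 higher (0.313%) at an adjusted p below 0.05. Together these were 125 genes, 1.78%. It called 52 of the 60 shared lower genes and 10 of the 13 shared higher ones. Both rules use the same 4 arrays, and the smallest mean difference called was 0.71 in size, so this overlap is no independent evidence. The fit has 1 residual degree of freedom, and its prior came out infinite, so every gene was judged against a single SE of 0.213 and a gene's own gap carried no weight. For 6 of the 125 calls the sham and TAC differences had opposite signs. With no filter on dim genes, or without the operation block, 0 genes were called in either direction, although 1356 and 486 genes had an unadjusted p below 0.05. In the fit as designed the number was 941. An exact permutation test of 2 arrays against 2 cannot give a two-sided p below 0.333, so a called gene is better read by its 4 values than by its p.

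**Figure D1:**
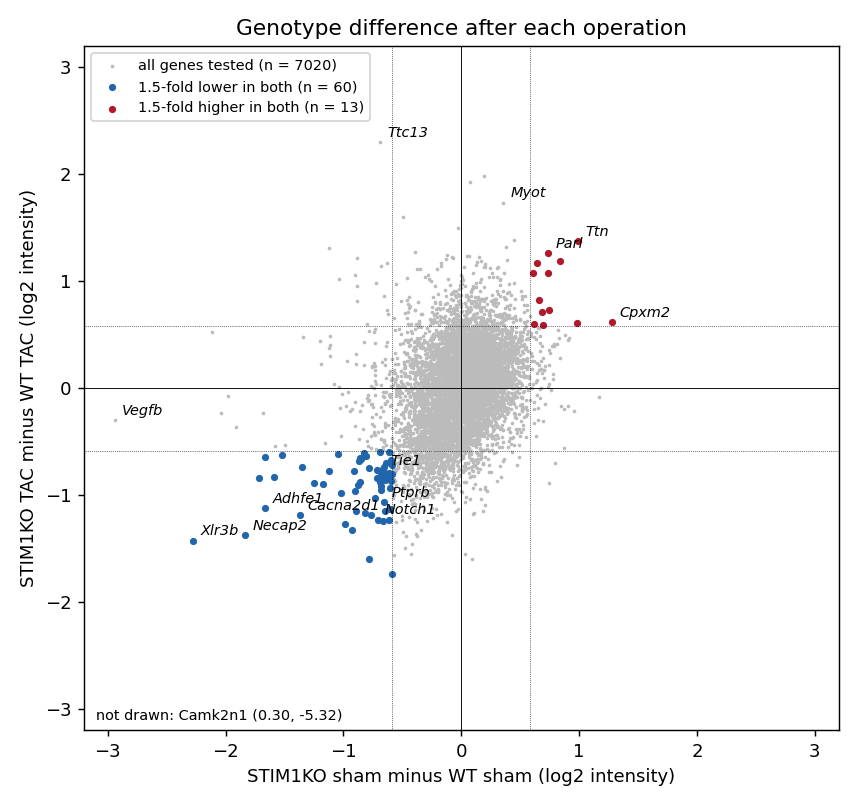
Each point is 1 of 7020 genes, with the STIM1KO minus WT difference in log2 intensity after sham on the x axis and after TAC on the y axis. Dotted lines mark 1.5-fold, blue points are the 60 genes lower in both operations and red points the 13 higher in both. The cloud is wider along the TAC axis, and Vegfb and Myot lie far from the diagonal.

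Among the shared lower genes, 4 were at least 2-fold lower after each operation, and no gene was 2-fold higher after each. Xlr3b, which belongs to a cluster of closely similar X-linked genes that its probe may not separate, had intensities of 73.8 (sham) and 42.7 (TAC) on WT, and 15.3 (sham) and 15.9 (TAC) on STIM1KO. Necap2, an adaptor of clathrin-coated vesicles, had 65.5, 44.2, 18.4 and 17.0 in the same order. In both genes the STIM1KO arrays sat together well below either WT array. Their mean differences were -1.85 (sham -2.27, TAC -1.43, adjusted p 1.62e-14 in limma) and -1.61 (sham -1.84, TAC -1.38, adjusted p 9.2e-11).

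Adhfe1, an alcohol dehydrogenase of mitochondria, was the brightest of the 4, at 310 (sham) and 299 (TAC) on WT, and 97.7 (sham) and 137 (TAC) on STIM1KO. The WT arrays nearly coincided and the STIM1KO arrays were both far lower. Its mean difference was -1.40 with a gap of 0.54 (adjusted p 8.57e-08). Cacna2d1 encodes the alpha2delta-1 subunit, which carries voltage-gated calcium channels to the cell surface and is the target of gabapentin. It read 93.2 (sham) and 38.4 (TAC) on WT, and 36.1 (sham) and 16.8 (TAC) on STIM1KO. Here the genotypes barely separated, since WT TAC and STIM1KO sham almost met. The mean difference of Cacna2d1 was -1.28 with a gap of 0.18 (adjusted p 2.09e-06).

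The remaining lower genes with the largest differences came from several kinds of cell machinery. Ccar1, a coactivator of transcription, read 94.5 and 80.3 on the WT arrays and 47.6 and 33.3 on the STIM1KO arrays, sham first (mean -1.13). Abt1, an activator of basal transcription, had 182 and 143 against 96.0 and 57.2 (mean -1.12). For both genes STIM1KO TAC was the lowest array, and the groups did not overlap. The homeobox gene Hlx read 119 and 84.3 on WT and 63.7 and 43.3 on STIM1KO (mean -0.93, gap 0.06). Ewsr1, an RNA-binding protein, read 78.2 and 75.2 on WT and 34.7 and 40.4 on STIM1KO (mean -1.03). Ostf1, a signalling adaptor first described in osteoclasts, was brighter, at 367 and 270 on WT and 199 and 145 on STIM1KO (mean -0.89, gap 0.02). Hlx and Ostf1 thus had nearly the same difference after both operations.

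Genes of protein turnover and kinases were also among them. Dpp3, a peptidase that cleaves angiotensin peptides, read 132 and 98.9 on WT and 55.6 and 53.5 on STIM1KO (mean -1.07). Ufsp1, a protease of the ubiquitin-like modifier UFM1, had 114 and 83.8 against 37.6 and 47.2 (mean -1.21), and Dcaf12, a receptor of a cullin ligase, had a mean of -0.87. Riok3, an atypical kinase, had 182 and 145 against 55.6 and 81.0 (mean -1.28), with the larger difference after sham. Dipk1b, a kinase-like protein of the secretory pathway, had a mean of -1.0 and Serpini1, the protease inhibitor neuroserpin, -1.02. All of these were called by limma. Brighter genes of the 60 included Mtx2, a protein of the outer mitochondrial membrane (1242 and 946 on WT, 789 and 533 on STIM1KO), and Spcs1, a subunit of the signal peptidase (1236 and 1071 on WT, 429 and 693 on STIM1KO). Most of the 60 were dim, however, since 42 had a mean intensity under 100, as had 49.0% of all genes tested.

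**Figure D2:**
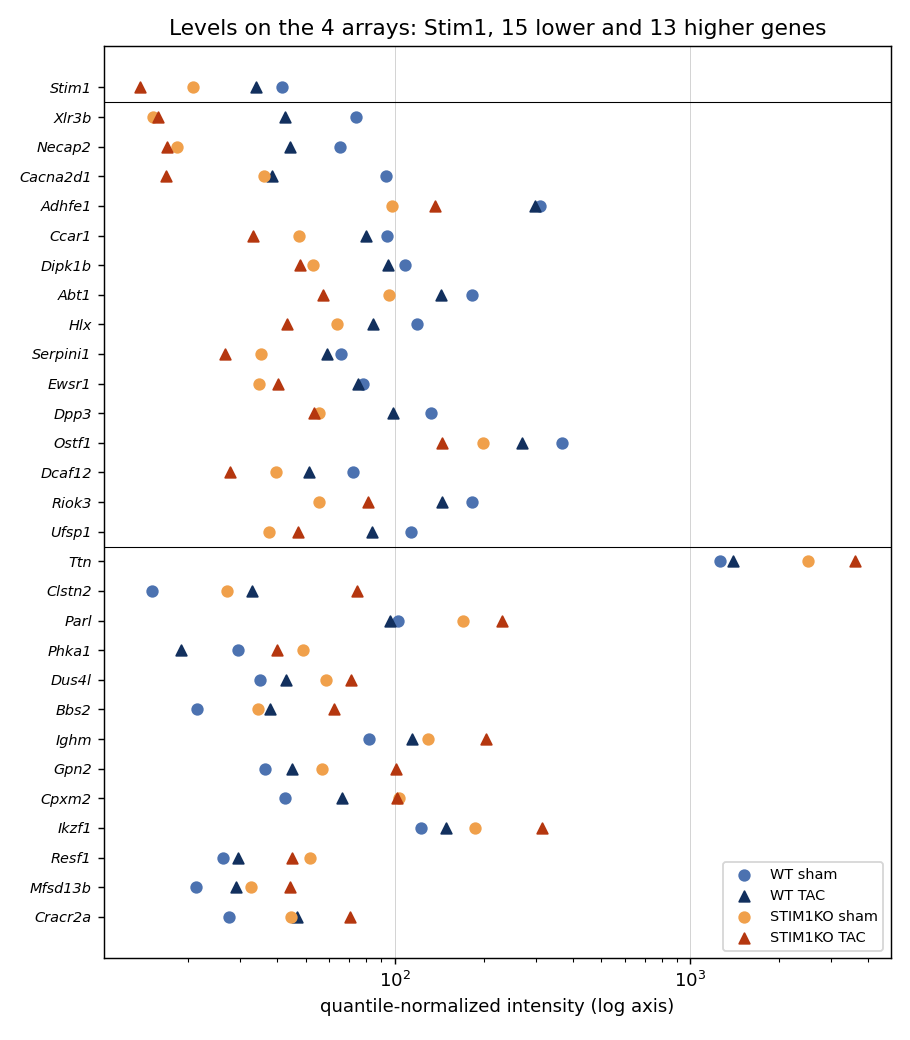
Quantile-normalized intensity on a log axis for Stim1, for the 15 lower and for the 13 higher genes at 1.5-fold in both operations, with circles for sham and triangles for TAC, blue for WT and orange or red for STIM1KO. In the lower genes the STIM1KO symbols lie left of the WT symbols, almost touching in Cacna2d1, and in the higher genes Clstn2, Bbs2 and Cracr2a overlap between genotypes.

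Endothelial genes leaned to lower signals in STIM1KO. Of 30 endothelial markers, 25 passed the filter, and 17 of these (68.0%) were lower after both operations, beside 30.4% of all genes tested, while 0 were higher after both, beside 31.7%. Of all genes tested, 62.1% had the same sign after both operations. Below 0 were 22 of the 25 after sham and 20 after TAC. The median difference was -0.27, against 0.01 over all genes, with -0.25 after sham and -0.17 after TAC. In 14 of the 25 both STIM1KO arrays lay below both WT arrays, which 19.1% of all genes tested did. Of the 25, Tie1 and Ptprb passed the test and reached 1.5-fold after both operations. The 5 dimmer markers went both ways, with Cdh5, the adhesion molecule of endothelial junctions, at -0.98 and Plvap, a protein of fenestrae, at 0.29. Summed over all 30 markers, the intensity was 27984 (sham) and 25642 (TAC) on WT, and 23803 (sham) and 22872 (TAC) on STIM1KO. Much of each sum came from Fabp4, also listed as an adipocyte marker, at 13110, 11992, 11840 and 11397 in the same order. In RNA from whole tissue, fewer cells of a type and less RNA per cell cannot be told apart.

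Tie1, the orphan receptor tyrosine kinase that works beside the angiopoietin receptor Tek, read 554 (sham) and 408 (TAC) on WT, and 349 (sham) and 239 (TAC) on STIM1KO. Ptprb, the phosphatase VE-PTP that acts on Tek and on endothelial junctions, read 128, 91.8, 81.1 and 43.8 in the same order. Both genes stepped down along these arrays, so that the groups did not overlap but WT TAC was close to STIM1KO sham. Tie1 fell by 0.72 (sham -0.67, TAC -0.77, adjusted p 0.0453), and Ptprb fell by 0.86 (sham -0.65, TAC -1.07, adjusted p 0.00644). With values as deposited, without quantile normalization, Tie1 no longer passed the test although its difference was -0.78.

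Markers of the same cells that passed the filter but not the test had smaller mean differences. Egfl7, a secreted endothelial factor, differed by -0.39 after sham and -0.69 after TAC. Pecam1, the adhesion molecule CD31, differed by -0.37 and -0.69, and Cav1, the coat protein of caveolae, by -0.36 and -0.66. The VEGF receptor Kdr differed by -0.19 and -0.57, Tek by -0.15 and -0.62, and the nitric oxide synthase Nos3 by -0.14 and -0.40. These 6 genes had the larger difference after TAC. Among the rest that were lower after both, so did Aqp1, Sox18 and Mmrn2, whereas Rasip1, Cldn5, Esam, Fabp4 and Sox17 had it after sham. Flt1, the receptor of VEGFB, also had it after sham, with -1.02 after sham and -0.05 after TAC, and Icam2 had opposite signs, with -0.89 and 0.96.

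**Figure D3:**
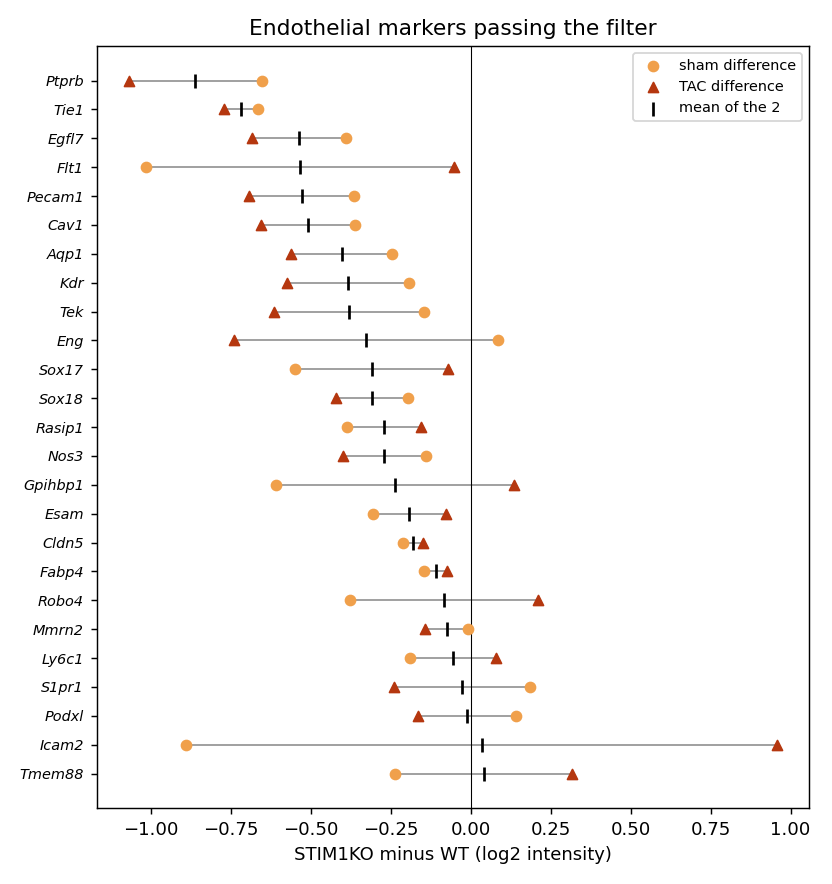
STIM1KO minus WT differences in log2 intensity of the 25 endothelial markers that passed the filter, with circles for sham, triangles for TAC and a tick for their mean. Most genes lie left of 0 after both operations, Ptprb and Tie1 farthest, and Icam2 spans 0 most widely.

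Angiogenic ligands and Notch signalling were read from a list of 28 genes, of which 20 passed the filter and some are also endothelial markers. After both operations 10 of the 20 were lower and 0 higher, beside 30.4% and 31.7% of all genes tested, and the median difference was -0.15. Notch1, a receptor that sets endothelial cell fate, read 49.4 (sham) and 43.3 (TAC) on WT, and 30.2 (sham) and 18.4 (TAC) on STIM1KO. The STIM1KO arrays were both below the WT arrays. Notch1 fell by 0.97 (sham -0.71, TAC -1.23, adjusted p 0.00105). Rgcc and Rbp7 are not members of this list and were picked from the shared lower genes once values were known. Rgcc, a regulator of the cell cycle, read 706 and 609 on WT and 375 and 355 on STIM1KO, and fell by 0.85 with a gap of 0.13 (adjusted p 0.00839). Rbp7, a retinol-binding protein of endothelium and adipose tissue, read 354 and 326 on WT and 200 and 215 on STIM1KO, and fell by 0.71 (adjusted p 0.0468).

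Immediate early genes respond within minutes to stimuli such as calcium. Of 20 that passed the filter, 9 were lower and 4 higher after both operations, with a median of -0.22. Of all genes tested, 30.4% were lower and 31.7% higher. With dim members included, 11 of 30 were lower and 9 higher, with a median of -0.19. Klf6, a zinc finger factor of that group, read 177 (sham) and 114 (TAC) on WT, and 69.6 (sham) and 68.7 (TAC) on STIM1KO. The STIM1KO arrays were alike and both below either WT array. Klf6 fell by 1.04 (sham -1.35, TAC -0.73, adjusted p 0.000317) and was the only member called. Dusp6, a phosphatase of ERK, differed by -0.87 and -0.47, Klf4 by -0.30 and -0.68, and Klf2, a factor induced by shear stress, by -0.20 and -0.97. Dusp1, a phosphatase of stress kinases, was on the other side with 0.18 and 0.20. The other members higher after both were Maff (0.18 and 0.17), Egr1 (0.55 and 0.11) and Ccn1 (0.03 and 1.13).

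For 4 of the lower genes above, 1 calcium channel subunit, both endothelial receptors of signalling and an immediate early factor, the 250 bases upstream of the first listed start are given, because these genes were lower together. They are from RefSeq on GRCm38.p6, written 5′ to 3′ on the gene's strand. Capitals mark TTTCC, which is GGAAA on the other strand, the core that NFAT factors bind.
Cacna2d1, chr5:15934441-15934690, plus strand: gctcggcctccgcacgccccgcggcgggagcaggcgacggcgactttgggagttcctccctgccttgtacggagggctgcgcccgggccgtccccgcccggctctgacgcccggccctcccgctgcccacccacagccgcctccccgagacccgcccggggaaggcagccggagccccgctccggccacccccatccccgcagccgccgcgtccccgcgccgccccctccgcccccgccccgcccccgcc
Notch1, chr2:26503823-26504072, minus strand: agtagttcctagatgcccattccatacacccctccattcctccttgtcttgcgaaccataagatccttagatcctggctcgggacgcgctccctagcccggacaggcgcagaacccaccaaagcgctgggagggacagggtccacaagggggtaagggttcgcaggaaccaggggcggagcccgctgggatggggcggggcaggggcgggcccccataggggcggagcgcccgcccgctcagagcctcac
Tie1, chr4:118489850-118490099, minus strand: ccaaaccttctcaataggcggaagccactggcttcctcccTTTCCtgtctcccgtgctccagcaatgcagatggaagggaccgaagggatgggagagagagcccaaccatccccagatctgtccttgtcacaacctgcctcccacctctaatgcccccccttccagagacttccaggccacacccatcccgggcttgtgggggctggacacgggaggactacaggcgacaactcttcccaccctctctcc
Klf6, chr13:5861239-5861488, plus strand: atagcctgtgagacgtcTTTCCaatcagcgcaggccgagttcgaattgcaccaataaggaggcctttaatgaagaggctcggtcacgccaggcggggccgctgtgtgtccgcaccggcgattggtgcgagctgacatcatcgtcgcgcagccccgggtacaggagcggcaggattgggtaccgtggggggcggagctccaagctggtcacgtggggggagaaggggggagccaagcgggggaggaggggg
The core stood once each in the Tie1 and Klf6 windows and in neither of the others. Of the 60 lower genes, 46 had a promoter in the table, and 20 of these (43.5%) held GGAAA on either strand. Among all 5710 tested genes with a promoter the share was 54.5%, and among the 12 higher genes with one it was 6 of 12. The cAMP response element TGACGTCA was in 0 of the 46 and in 3.0% of all promoters, and the AP-1 motif TGANTCA in 0 of the 46 and in 4.75%. Both strands were searched for each motif, and N stands for any base.

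Fibroblast and matrix genes went both ways, with more of them lower. Of 24 fibroblast markers that passed the filter, 11 were lower and 5 higher after both operations, with a median of -0.14. The shares of all genes tested were 30.4% lower and 31.7% higher. Dcn, the matrix proteoglycan decorin, read 3279 (sham) and 2879 (TAC) on WT, and 2406 (sham) and 1433 (TAC) on STIM1KO. STIM1KO TAC stood lowest, and the groups did not overlap. Dcn fell by 0.73 (adjusted p 0.0414), and Fstl1, a secreted glycoprotein, fell by 0.72 (sham -0.41, TAC -1.04, adjusted p 0.0430). Cd34, shared by fibroblasts and endothelium, differed by -0.50 and -0.63 and Vim, the intermediate filament vimentin, by -0.33 and -0.98, and neither passed the test. On the other side Mgp, the matrix inhibitor of calcification, differed by 0.37 and 0.38. Among 40 extracellular matrix genes, 16 were lower and 6 higher after both operations. Dcn and Fstl1 did not pass with values as deposited. Timp3, an inhibitor of matrix proteases, fell by 0.74 (sham -0.50, TAC -0.97, adjusted p 0.0389; not called as deposited), and Lamb2, a laminin chain of basement membranes, differed by -0.49 and -0.58. The summed fibroblast intensity was 20765 and 18031 on WT sham and TAC, and 17926 and 13946 on STIM1KO sham and TAC. Its largest part was Gsn, at 8111, 5949, 6332 and 4373 in the same order.

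Of 36 cell cycle genes, 14 passed the filter, and 10 of them (71.4%) were lower after both operations with 0 higher. Of all genes tested, 30.4% were lower and 31.7% higher. With median centring 8 of the 14 list members were lower and 0 higher. In the main setting the median of the 14 was -0.25. Over the 33 members with a value on all arrays, dim ones included, 20 were lower and 0 higher, beside 29.1% lower of all 14039 genes. H2az1, the histone variant H2A.Z, read 462 (sham) and 425 (TAC) on WT, and 308 (sham) and 127 (TAC) on STIM1KO. Mcm6, a subunit of the replicative helicase, read 47.6, 42.9, 32.0 and 21.4 in the same order. In both the WT arrays were close and STIM1KO TAC was lowest. H2az1 fell by 1.16 (adjusted p 3.05e-05) and Mcm6 fell by 0.79 (adjusted p 0.0204), but with values as deposited Mcm6 no longer passed. Other subunits of that helicase were mixed. Mcm4 (-0.03 and 0.64) and Mcm7 (-0.10 and 0.57) changed sign, while the dim Mcm2, Mcm3 and Mcm5 were lower after both operations. Cdk4 differed by -0.32 and -0.33, Rrm1, a subunit of ribonucleotide reductase and the next gene to Stim1 on its chromosome, by -0.28 and -0.73, and Pcna by 0.04 and -0.05.

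Macrophage markers leaned lower after sham and were mixed after TAC, a difference between operations that was not tested. Of 21 that passed the filter, 20 were below 0 after sham and 9 after TAC, with medians of -0.30 and 0.06, so that 8 were lower after both and 0 higher. Of all 7020 genes tested, 3493 were below 0 after sham and 3424 after TAC, while 30.4% were lower after both and 31.7% higher. No macrophage marker was called. Ly86 differed by -0.47 after each operation and Pf4 by -0.34 and -0.52, whereas the complement genes C1qa, C1qb and C1qc differed by -0.16, -0.23 and -0.12 after sham and 0.06, 0.06 and 0.12 after TAC. Mural markers were split, with 5 lower and 4 higher of 13 after both operations. Rgs5, a regulator of G protein signalling in pericytes, read 310 and 329 on WT and 236 and 140 on STIM1KO and fell by 0.81 (adjusted p 0.0142, not called as deposited), while Tagln, a smooth muscle actin-binding protein, differed by 0.69 and 0.28.

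At 1.5-fold in both operations fewer genes were higher than lower, although 2228 genes were higher and 2133 lower after both at any size. The brightest of the 13 was a probe of Ttn, titin, the spring of the sarcomere, at 1264 (sham) and 1389 (TAC) on WT, and 2510 (sham) and 3599 (TAC) on STIM1KO. Both STIM1KO arrays were far above both WT arrays. Ttn rose by 1.18 on this probe (sham 0.99, TAC 1.37, adjusted p 2.11e-05). A second titin probe read 77.1 and 74.6 on WT and 79.0 and 62.3 on STIM1KO, a mean difference of -0.11, and the remaining, dim probe gave 0.20. With the mean over its probes, Ttn differed by 0.42 and did not pass the test. The difference therefore belonged to 1 of 3 probes.

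Parl, a protease of the inner mitochondrial membrane that cleaves PINK1, read 102 (sham) and 96.2 (TAC) on WT, and 170 (sham) and 230 (TAC) on STIM1KO. Its WT arrays agreed closely and the STIM1KO arrays lay above them. Parl rose by 1.0 (adjusted p 0.000645). Phka1, the muscle subunit of the kinase that activates glycogen phosphorylase, read 29.5 and 19.0 on WT and 49.0 and 40.0 on STIM1KO and rose by 0.90 (adjusted p 0.00323). Gpn2, a GTPase, rose by 0.91 and the tRNA-modifying enzyme Dus4l by 0.74. Clstn2, calsyntenin 2, rose by 1.01, although its 15.1 and 32.9 on WT overlapped with 27.0 and 74.8 on STIM1KO. With values as deposited, Dus4l no longer passed the test.

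Among the 13 were also 2 genes of lymphocytes. Ighm, the heavy chain of IgM, read 82.2 (sham) and 115 (TAC) on WT, and 130 (sham) and 204 (TAC) on STIM1KO, and rose by 0.74 (adjusted p 0.0364). Ikzf1, the lymphoid factor Ikaros, read 123, 149, 187 and 314 and rose by 0.84 (adjusted p 0.00849). Both genes stepped up along the 4 arrays, and neither was called with values as deposited. Of 23 lymphocyte markers, 13 were valued throughout and Ighm alone passed the filter. Their summed intensity was 222 and 242 on the WT arrays and 259 and 337 on the STIM1KO arrays. Without Ighm the other 12 summed to 140 and 127 on WT and 129 and 133 on STIM1KO, which overlap. Dim members included, 4 of the 13 were lower and 5 higher after both operations, with a median of 0.07. Cpxm2, a carboxypeptidase-like protein held in the epicardial list, read 42.6 and 66.5 on WT and 104 and 102 on STIM1KO and rose by 0.95 (adjusted p 0.00148).

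Muscle genes as a group sat near or slightly above the genes at large. Of 25 sarcomere genes, 3 were lower and 11 higher after both operations (44.0%), with a median of 0.05. Myot, the Z-disc protein myotilin, rose by 1.05 (sham 0.35, TAC 1.74, adjusted p 0.000302, not called as deposited), and Myom2, a protein of the M-band, had 0.03 after sham and -1.55 after TAC. The troponins Tnnt2 (0.20 and 0.59) and Tnni3 (0.32 and 0.26) did not pass the test. These genes are among the brightest, where quantile normalization gives arrays the same top values, so that Mb had a difference of 0. As deposited, without that step, the sarcomere median was -0.01. Of 10 genes of muscle atrophy and ubiquitin ligases, 6 were higher and 1 lower, with a median of 0.29 and 0 called. Klhl31, a muscle protein of the kelch family, differed by 0.49 and 0.63, and Trim54, a RING finger protein of the sarcomere, by 0.32 and 0.51.

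**Figure D4:**
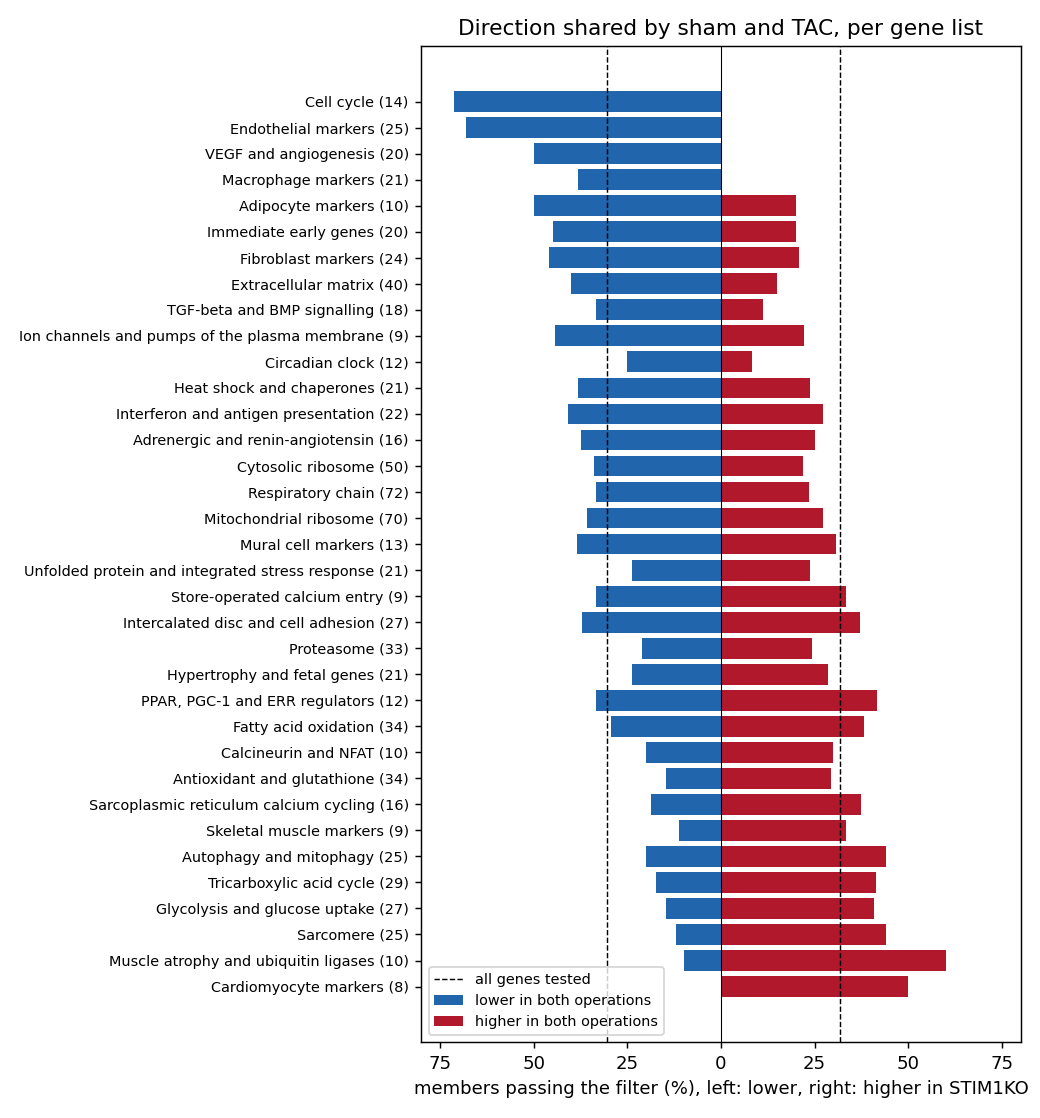
For the 35 gene lists with 8 or more members that passed the filter (their number in brackets), bars give the percentage lower in STIM1KO after both operations (left, blue) and higher after both (right, red). Dashed lines mark 30.4% and 31.7%, the shares of all genes tested. Among the lists drawn, cell cycle and endothelial bars reach farthest left with no bar on the right, and atrophy and cardiomyocyte bars reach farthest right.

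Store-operated calcium entry was read from 21 genes. On all 4 arrays 16 were valued, and 9 passed the filter. After both operations 3 were lower and 3 higher, and 0 were called. Stim2, the homologue of Stim1, was dim, at 28.0 and 25.7 on WT and 25.3 and 19.0 on STIM1KO, with differences of -0.14 and -0.43. Among the pore subunits, Orai1 differed by 0.20 and -0.01 and Orai3 by 0.13 and -0.34. Orai2 was read at 2.44 to 5.48 intensity units, too dim to compare, with 0.29 and -0.73. Saraf, the brake that closes the channel again, was the brightest member at 2172 and 2295 on WT and 2133 and 2245 on STIM1KO, a mean difference of -0.03.

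Of the members that passed the filter, Cracr2a, a calcium-binding regulator of Orai channels, was the only one at 1.5-fold after both operations. It read 27.6 (sham) and 46.8 (TAC) on WT, and 44.7 (sham) and 70.4 (TAC) on STIM1KO. STIM1KO sham lay below WT TAC, so the genotypes overlapped. The differences were 0.70 and 0.59, with an adjusted p of 0.0917. Its relative Cracr2b had the opposite sign, with 136 and 130 on WT and 105 and 88.1 on STIM1KO (differences of -0.38 and -0.56, adjusted p 0.297). The neuronal scaffold Homer1 differed by 0.43 and 0.21, and the IP3 receptor Itpr3 by -0.65 and -0.03.

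Of 10 calcineurin and NFAT genes that passed the filter, 2 were lower and 3 higher after both operations and 0 were called, and with values as deposited 4 were lower and 2 higher. The catalytic subunits of calcineurin went different ways, with -0.34 and -0.17 for Ppp3ca and 0.40 and 0.25 for Ppp3cb. Nfatc4 differed by 0.31 and 0.23. Rcan1, a calcineurin inhibitor that NFAT itself induces, read 277 and 292 on WT and 372 and 283 on STIM1KO, with 0.42 after sham and -0.04 after TAC. Among 16 genes of calcium cycling in the sarcoplasmic reticulum, 3 were lower and 6 higher, again with 0 called. Triadin (Trdn), which anchors calsequestrin to the release channel, differed by -0.37 and -0.50, the calcium pump Atp2a2 by 0.02 and -0.06, and its inhibitor phospholamban (Pln) by 0.27 and 0.55. With values as deposited, the mean difference of Atp2a2 was -0.13 in place of -0.02.

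The usual markers of hypertrophy had no shared genotype difference that passed the test. Nppa, the atrial natriuretic peptide, read 1422 and 1684 on WT and 1249 and 1136 on STIM1KO, with -0.19 after sham and -0.57 after TAC. Nppb, the brain natriuretic peptide, had 0.26 and -0.37, and the fetal myosin Myh7 had 0.47 and -0.72. For both the sign turned with the operation. The skeletal actin Acta1 (0.07 and -0.04) and the adult myosin Myh6 (0.09 and -0.28) were near 0 on average. Col3a1 had -0.29 and -0.11 and Postn, periostin, -0.15 and 0.17. Col1a1, just below the filter, read 35.5 and 31.1 on WT and 28.4 and 19.7 on STIM1KO, a mean difference of -0.49.

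By the mean alone, 25 genes were at least 2-fold lower (0.356% of those tested) and 5 at least 2-fold higher (0.0712%), but 8 and 3 of them missed 1.5-fold after one of the operations. With values as deposited the counts were 30 and 2. Several of those means rested on 1 array. Camk2n1, the endogenous inhibitor of the calcium kinase CaMKII, read 90.5 (sham) and 92.4 (TAC) on WT, and 111 (sham) and 2.31 (TAC) on STIM1KO. The STIM1KO TAC array alone was low, and without it the difference is 0.30 rather than -2.51. That reading is below the first quartile of its array (5.38 intensity units), so neither the TAC difference of -5.32 nor the mean is an exact size. With values as deposited it was not called. Vegfb, an endothelial growth factor that binds Flt1 and is made by cardiomyocytes, read 3247, 2676, 424 and 2172. There STIM1KO sham alone was low (sham -2.94, TAC -0.30). Rhoc, Rpp25l and Arhgef3 had the pattern of Vegfb, with -1.91, -2.04 and -1.98 after sham and -0.36, -0.23 and -0.07 after TAC. Id3, an inhibitor of DNA binding by helix-loop-helix factors, was nearer to a shared difference, with -0.57 and -1.56. On the higher side Mfsd6 and Fez2 had 0.19 and 0.07 after sham and 1.99 and 1.93 after TAC, and neither was called with values as deposited.

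The shared genes also followed the operation. Of the 60 lower genes, 57 (95.0%) read lower on WT TAC than on WT sham, as did 52.5% of all genes tested, and 49 (81.7%) read lower after TAC than after sham within STIM1KO, as did 50.5%. The median TAC minus sham difference of the 60 was -0.36 in WT and -0.45 in STIM1KO. As many as 48 of the 60 (80%) lay in falling order from WT sham over WT TAC and STIM1KO sham to STIM1KO TAC, which 10.2% of all genes did. Of the 13 higher genes, 6 (46.2%) lay in the reverse order, against 9.74% of all genes. Falling order requires both STIM1KO arrays below both WT arrays. All 60 lower genes had this, and of the 1344 genes tested that had it, 714 lay in falling order. For the reverse order it was 684 of the 1569 genes with both STIM1KO arrays above, and 6 of 10 among the higher genes. The genes were chosen on genotype differences that use the same arrays, so these shares are a description. The labels number the arrays in this same order, so array number and genotype cannot be told apart. With values as deposited, 87.6% and 76.4% of the genes 1.5-fold lower in both had the lower TAC reading in WT and in STIM1KO, an alternative chosen after seeing the data. The shares of all genes in that setting were not set beside these, so they cannot be compared with 52.5% and 50.5%.

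**Figure D5:**
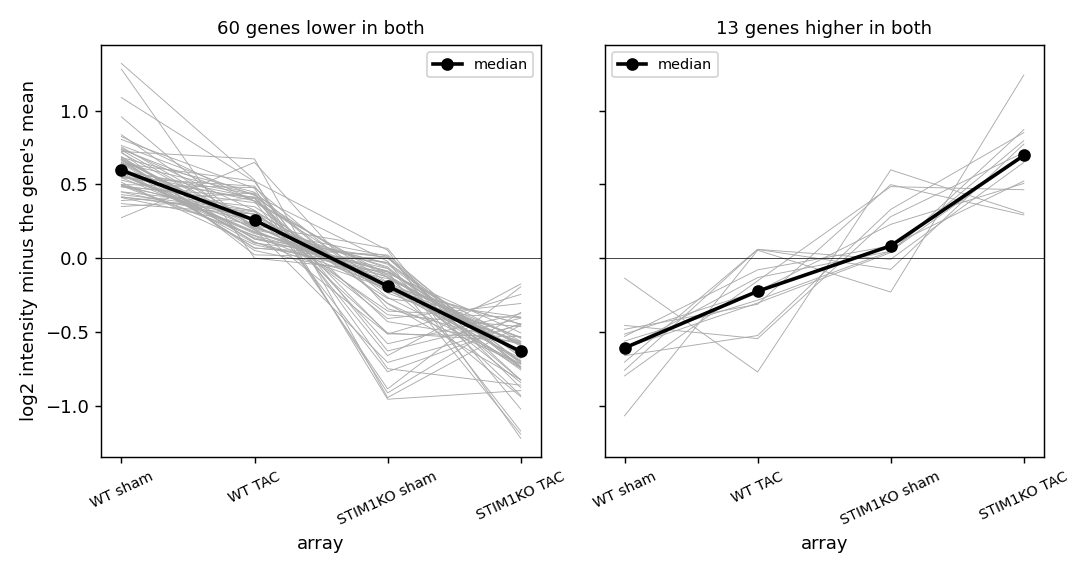
Log2 intensity minus the gene's own mean over the 4 arrays, for the 60 genes lower (left) and the 13 higher (right) at 1.5-fold after both operations, with the median in black. The median steps down from array to array on the left and up on the right, so TAC lies on the STIM1KO side of sham in each genotype.

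Agreement between probes was read from 53 genes with a pair of probes above the filter level. Across these genes the mean differences of the brighter and the dimmer probe had a Pearson correlation of 0.145 and the same sign in 33 of 53 (62.3%). The error SD of a single probe was 0.272, close to the SD of 0.313 among the brighter probes. Of the 73 shared genes, 70 had a single probe valued on all arrays. The other 3, Ttn, H2ac4 and Ttc28, had further probes. Of these the second Ttn probe alone was above the filter level of 29.3 intensity units, and the rest were too dim to bear on the difference. For H2ac4, a core histone of the replication-dependent kind with near-identical copies, the bright probe gave -0.98 and the further probe read 3.89 to 5.98 intensity units.

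Genes beside Stim1 on its chromosome were read as well. Of the 25 valued genes on each side, 17 of 50 were lower and 11 higher after both operations, and 0 reached 1.5-fold in both. Their median was -0.02. Rrm1 and Pgap2, the valued genes directly next to Stim1, differed by -0.28 and -0.73 and by -0.24 and -0.40. Clpb, a mitochondrial chaperone, had the largest positive mean of the neighbours that passed the filter (0.74 after sham, 0.36 after TAC). Chromosome 7, which holds Stim1, carried 3 of the 60 lower genes (5.00%) and 2 of the 13 higher ones, beside 8.05% of all genes tested.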

How the data were processed

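Per the labels, amplified RNA was coupled to a Cy5 dye and hybridised to 1 array per group, and each probe has 1 linear intensity on each array in the table that the authors deposited. Each array had a median of about 20.0. The sources used here do not give the scanner, background correction or rule for empty cells. Of 23473 probes, 19607 had a value on all 4 arrays. They were taken to log2 and quantile normalized, because array medians spread over 0.101. A gene symbol was paired with 16631 probes, of which 3947 were updated through synonyms in RefSeq (GRCm38.p6, names and gene order only) and 16569 matched. The probe with the highest mean stood for a gene, and genes at or above the median level were kept.

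The genotype difference is the mean of the sham and TAC differences. It was fitted in limma 3.58.1 (R 4.3.3) with the operation as a block, and called at a Benjamini-Hochberg adjusted p below 0.05 over all genes tested. The fit was also run on simulated arrays with independent noise and an equal genotype effect after both operations. That simulation held no outlying array, so it checks the code and not the calls made here. With 1 array per group, p-values measure only the spread between these arrays, and their number limits the precision. Counts and lists were compiled in Python 3.11.15 with pandas 2.3.3. Gene names matched 46 of 60 lower and 12 of 13 higher genes in the promoter table.

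Members and the 42 gene lists were chosen with earlier results of these data known. Genes were named by a rule: Stim1 and the store-operated list, the 15 lower and up to 15 higher genes (13 were found) with the largest smaller difference at 1.5-fold in both, the 10 largest means at 2-fold and the 10 smallest p-values among called genes each way, up to 6 members per list with the largest shared difference, 10 fixed markers, and neighbours of Stim1 at 1.5-fold in both (0 were found). Clone and gene-model names were left out. Rgcc, Rbp7, Mtx2, Spcs1, the threshold neighbours, the genes beside Stim1, and list members outside the leading 6 were picked once values were known. Settings tried as alternatives were median centring, values as deposited, an offset of 5.49 intensity units, mean over probes, other filters and thresholds, no operation block, other spread priors, and each pair alone.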

Additional observations from a re-analysis of the deposited data

Results flagged for a closer look

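The STIM1KO minus WT difference had one sign after sham and the other after TAC in 2641 of 7020 genes, and the difference between operations was not tested, since each is 1 array against 1. Of these genes 11 stood out, either because limma called them or because both differences were large. Called were Camk2n1 (0.30 after sham, -5.32 after TAC, mean -2.51, with a STIM1KO TAC reading of 2.31 that is too dim to give these sizes exactly), Mrpl2, a mitochondrial ribosome protein (-2.12, 0.53, mean -0.79), Myom2 (0.03, -1.55, mean -0.76), Prdx5, a mitochondrial peroxidase (-0.03, 1.50, mean 0.74), Ric3, a chaperone of nicotinic receptors (0.09, -1.60, mean -0.75), and Ttc13 (-0.69, 2.30, mean 0.81). A mean of opposite signs describes neither operation, and in Mrpl2 WT sham alone stood high, at 1369 beside 525 on WT TAC, and 316 and 758 on the STIM1KO arrays. Not called, but at or near 1.5-fold in opposite directions, were the fetal myosin Myh7 (0.47, -0.72, mean -0.12), Icam2 (-0.89, 0.96, mean 0.0335), the collagen Col1a2 (-0.63, 0.73, mean 0.0523), the glutathione-degrading enzyme Chac1 (-1.12, 1.31, mean 0.10) and Mybpc2, a fast skeletal myosin-binding protein (0.79, -0.70, mean 0.0484). These genes, apart from Camk2n1 and Myh7, were singled out after their values were seen.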

How the results depend on the processing

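No paired analysis was possible because each group holds 1 array and the labels give no replicate numbers, and the operation served as the block instead. Leaving out any 1 array leaves 1 pair: the sham pair alone gave 37 genes 2-fold lower and 2 higher, the TAC pair alone 76 and 62, where the mean of both gave 25 and 5. Genes called lower in limma (103) came to 50 with values as deposited, 47 with the filter at the 75th percentile, 0 with no filter and 0 with no operation block. Genes called higher (22) came to 6 with values as deposited, 38 with the offset, 46 with a trend in the prior, 58 at an adjusted p below 0.1, and 0 both with no filter and with no block. Lower genes at 1.5-fold in both (60) came to 240 with no filter, 17 with the 75th percentile filter, 270 at 1.3-fold and 4 at 2-fold, and higher genes (13) to 7 with the offset, 149, 4, 145 and 0. Genes 2-fold lower on average (25) came to 92 with no filter, 11 with the 75th percentile filter, 204 at 1.5-fold and 4 at 3-fold. Those 2-fold higher (5) came to 3 with median centring, 2 as deposited, 1 with the offset (18 lower; 30 lower as deposited), 3 with the mean over probes, 61 with no filter, 2 with the 75th percentile filter, 79 at 1.5-fold and 0 at 3-fold. Genes whose groups did not overlap (1344 lower, 1569 higher) came to 2619 and 2962 with no filter, to 666 and 804 at the 75th percentile, and 1848 and 1081 as deposited. Of the 60 shared lower genes, 52 were kept under median centring, 60 as deposited, 42 with the offset and 58 with the mean over probes, and of the 13 higher genes 9, 9, 7 and 12. The Stim1 difference was -0.94 with the offset, and that of Camk2n1 reversed to 0.30 in the sham pair. For the fold and overlap counts, the fewer or additional genes of the filters and thresholds follow from their construction. The loss of all limma calls with no filter does not. The prior degrees of freedom were infinite in the main fit, 5.91 with no filter and 6.81 with no operation block. What removed the calls was not tested, nor was the cause for the other settings. Leaving the single pairs aside, of 1259 alternative values for single genes, list medians and shares, 1116 moved by less than the spread or kept their call, 123 moved further and 20 lost their call. A single pair always lies at the same distance from the mean, so only its sign is informative: it differed from that of the mean for 11 of 251 genes and 8 of 42 list medians in the sham pair, and for 3 and 10 in the TAC pair.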

Other observations

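Energy metabolism had no gene called in any of its lists. The balance of some lists moved with the scaling, as did that of all genes. Of all genes tested, 31.7% were higher and 30.4% lower after both operations, and 26.1% and 36.2% with values as deposited. Of 27 glycolysis genes that passed the filter, 11 were higher and 4 lower in STIM1KO after both operations, with a median of 0.11, and 9 and 6 with values as deposited. Pfkfb1, a kinase that makes the activator of phosphofructokinase, differed by 0.38 after sham and 0.83 after TAC, and Ldhb, the heart form of lactate dehydrogenase, by 0.35 and 0.67. Of 29 genes of the tricarboxylic acid cycle, 12 were higher and 5 lower, but 9 and 10 with values as deposited, with Sdha, the flavoprotein of succinate dehydrogenase, at 0.50 and 0.53 and Cs, citrate synthase, at -0.15 and -0.50. In the respiratory chain 24 of 72 were lower and 17 higher, and 30 and 14 with values as deposited. Atp5g3, a ring subunit of ATP synthase, differed by -0.43 after each operation.

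Of the adrenergic and angiotensin list, 16 genes passed the filter, 6 were lower and 4 higher, and Pde4b, a phosphodiesterase of cAMP, read 105 and 137 on WT and 80.6 and 52.4 on STIM1KO and fell by 0.88 (adjusted p 0.00469), a call it lost with values as deposited. Myl1, a myosin light chain of skeletal and atrial muscle, read 1427 and 841 on WT and 451 and 539 on STIM1KO and fell by 1.15 (adjusted p 3.81e-05), and was the 1 of 9 skeletal muscle markers lower after both operations, while 3 were higher (Mybph, Pvalb and Myot). Autophagy genes were higher in 11 of 25 and lower in 5.

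Probes with empty cells were read apart from the comparisons. Valued on both WT arrays and empty on both STIM1KO arrays were 186 probes, of at most 5.44 intensity units, and 183 were the reverse, of at most 7.33. Of 2117 probes without a gene symbol at the filter level, 16 (0.756%) were 1.5-fold lower after both operations and 11 (0.520%) higher.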
